A study of Mus musculus with 8 samples.

Results

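Day 5 blastoids of the class labelled Type III were compared with T09-treated expanded potential stem cells (EPSC), the cell state the labels name as their source. The comparison rests on 2 of the 8 libraries of the series, 1 on each side, and no group of the series had a replicate. A blastoid is an aggregate of stem cells grown in a microwell until it resembles a blastocyst, and EPSC are mouse embryonic stem cells (ESC) carried in a mixture of inhibitors that is reported to widen what they can form. T09 is T0901317, a compound that activates liver X receptors (LXR).

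The Type III group was made of blastoids picked by hand on day 5, which the sample title calls Bad. They were grown from EPSC treated with T09, seeded at about 5 cells per microwell, in a medium with 12.5 ng/mL FGF4 and heparin, 3 µM CHIR99021 (which activates Wnt signalling), 5 ng/mL BMP4 and 0.5 µM A83-01 (which blocks activin and Nodal receptors), the last 2 added from day 1. The labels list no T09, no LIF and no PD0325901 in that medium. Type I blastoids, called Gd in the title, were picked on the same day from the same kind of culture and serve as a second point of comparison. How the classes were told apart, and how many blastoids were pooled, is not given in the sources used here. Day 2 blastoids serve as reference levels for some genes. They are labelled siNr1h2, an siRNA against Nr1h2, the gene of LXR beta, and siNT, by its name the non-targeting control. The labels list no T09 for either. The T09-treated EPSC came from E14 ESC held for 5 passages in EPSC medium, with LIF, 3 µM CHIR99021, 1 µM PD0325901 (an inhibitor of the kinase MEK), JNK inhibitor VIII, SB203580, A-419259 and XAV939 (which restrains Wnt signalling by stabilising Axin). They received T09 over 3 days. Its dose is labelled 1 uM/mL, from which no concentration can be read. Whether the culture that was sequenced is the one that was seeded is not stated. Culture format, medium and time thus differ between the Type III library and the T09-treated EPSC library, and whether T09 was present in the blastoid medium is not stated, so that the parts of these in any difference cannot be told apart.

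In the mouse blastocyst an outer epithelium, the trophectoderm, surrounds a cavity and an inner cell mass, and the inner cell mass separates into epiblast, which keeps pluripotency, and primitive endoderm. Primitive endoderm gives rise to parietal endoderm, which lays down a thick basement membrane, and to visceral endoderm, an absorptive epithelium that takes up maternal protein and secretes lipoproteins. LXR are nuclear receptors for oxysterols. Paired with retinoid X receptors, they switch on genes that export cholesterol and genes that make fatty acids.

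Total counts were 33938785 in the Type III library and 40781415 in the T09-treated EPSC library, with 37181849 in Type I and 24666260 to 40781415 over all 8. Levels below are CPM (counts scaled to a common library size) after TMM scaling, and they are not set against each other between genes, since gene lengths were not used. Ratios are log2 values of Type III over T09-treated EPSC with a prior count of 2, followed in parentheses by a 95% exact Clopper-Pearson interval. The labels name no molecular identifiers, so reads may be copies of 1 molecule, and these intervals cover counting error only. A gene was counted as higher or lower when it had 20 or more counts in 1 of the 2 libraries, a ratio of 2-fold or more, and an interval that did not include a ratio of 1. A gene that is silent in T09-treated EPSC can reach this minimum through Type III alone, and its direction then follows from the minimum. The counts given for lists with such genes are therefore descriptions, also where the number of such genes is not given. Against 0 counts, a bound computed from a floor of 3 counts is given as "at least". The libraries hold RNA of whole aggregates or dishes, so a larger share of cells of a type and more RNA per cell of that type cannot be told apart.

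Of 14395 genes with enough counts, 3117 were higher in Type III than in T09-treated EPSC (21.7%) and 2306 were lower (16.0%), so that 37.7% were counted as different. Every count of list members given below for this comparison is to be set beside these shares. The median log2 ratio over all of them was 0.00. At least 16-fold differences were more frequent upwards, with 598 genes higher and 188 lower by that much. The genes counted as higher took 17.2% of all counts in Type III and 3.59% in T09-treated EPSC, while those counted as lower took 4.72% in Type III and 14.6% in T09-treated EPSC.

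Apob, Ttr and Cubn were among the 15 named genes that lay furthest above T09-treated EPSC. Apob, the structural protein of secreted lipoproteins, stood at 1028 CPM in Type III against 0.445 in T09-treated EPSC, a log2 ratio of 11.01 (10.51 to 11.93). Ttr, which carries thyroid hormone and retinol-binding protein, stood at 174 CPM in Type III against 1 count in T09-treated EPSC, a log2 ratio of 11.10 (10.30 to 18.08). Cubn, the endocytic receptor cubilin, stood at 1413 and 2.84 CPM in Type III and T09-treated EPSC, with a log2 ratio of 8.93 (8.69 to 9.24). In T09-treated EPSC, Ttr was near 0, while Apob and Cubn were counted at a low level, with 18 and 115 counts. H19, a maternally expressed imprinted RNA of extraembryonic tissue and foetus, reached 4828 CPM in Type III against 7.34 in T09-treated EPSC (9.35, 9.20 to 9.53). Ctsh, a lysosomal protease, reached 408 CPM in Type III against 0.42 in T09-treated EPSC (9.75, 9.24 to 10.70).

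Prss12 (a secreted serine protease), Enpep (an aminopeptidase of absorptive surfaces), Lgals2 (a galectin) and Ugt2b34 (a glucuronosyltransferase) were not counted in T09-treated EPSC at all. They were at least 1022-fold, 651-fold, 532-fold and 392-fold higher in Type III, where they stood at 75.8, 48.2, 39.4 and 29.1 CPM. The remaining genes of this group were Clic6, Adora1, Flt1 (a VEGF receptor), Igfbp1 (a binder of insulin-like growth factors), Cited1 and Habp2, with log2 ratios from 8.72 for Cited1 to 10.23 for Clic6. Igfbp1 stood at 44.7 CPM in Type III and 1 count in T09-treated EPSC (9.14, 8.34 to 16.13), and was at 0 counts in both day 2 blastoid libraries.

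On the other side, Stra8, Khdc3 and Pramel6 were among the 15 named genes that lay furthest below T09-treated EPSC. Stra8, which is needed for entry into meiosis, fell to 0.365 CPM in Type III against 109 in T09-treated EPSC, a log2 ratio of -8.02 (-9.17 to -7.41). Khdc3, a maternal-effect gene of the oocyte, stood at 0.426 CPM in Type III and 82 in T09-treated EPSC (-7.42, -8.46 to -6.84). Pramel6, of the PRAME family, had 1 count in Type III against 560 counts in T09-treated EPSC (-7.35, -14.14 to -6.35). Inhbb, the beta B subunit of activin, fell to 0.608 CPM in Type III, against 88.5 in T09-treated EPSC (-7.06, -7.90 to -6.56). Aqp3, an aquaglyceroporin of the family that moves water into the blastocyst cavity, fell to 4.75 CPM in Type III, against 376 in T09-treated EPSC (-6.29, -6.55 to -6.08). The others were Myo1f, Msc, Prmt8, Krt42, Mypn, Tuba3b, Slc51a, Ak7, Slc6a16 and Pcolce, with log2 ratios from -8.82 (-11.77 to -7.94) for Myo1f, which had 3 counts in Type III, to -5.97 (-6.32 to -5.69) for Pcolce.

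**Figure D1:**
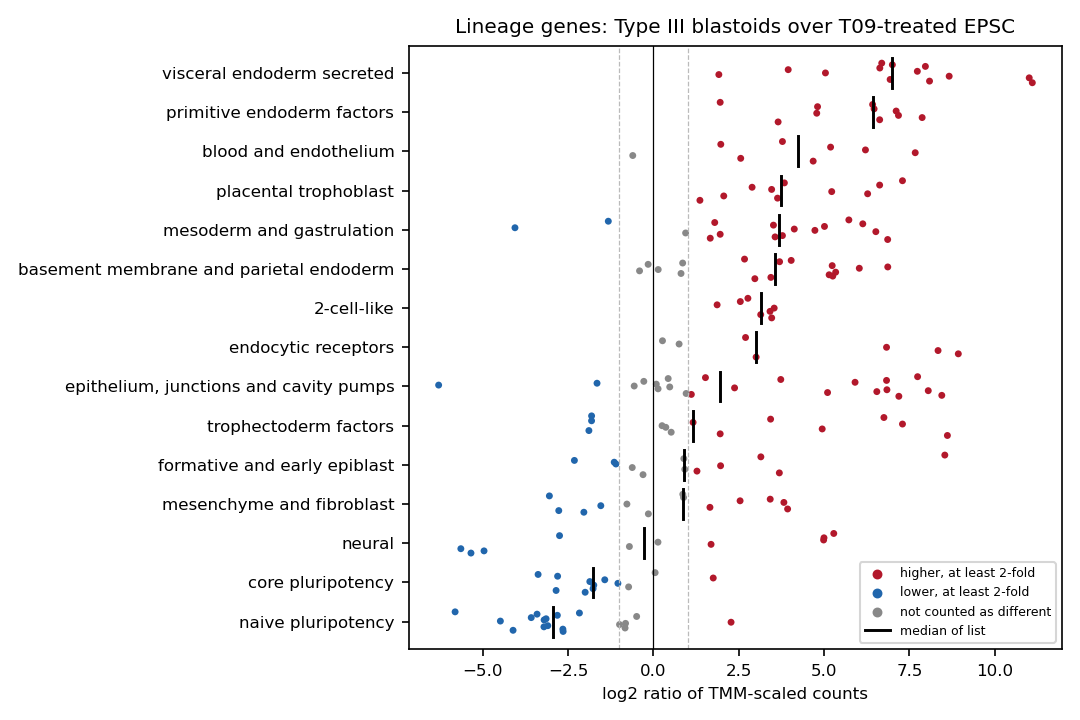
Log2 ratio of Type III blastoids over T09-treated EPSC for each member of 15 lineage lists with at least 20 counts in 1 of the libraries (1 library a side). Each point is a gene, red where counted as higher, blue where lower and grey otherwise, the black bar is the list's median, and dashed lines mark 2-fold. The lists run from visceral endoderm secreted products, with a median of 7.0, down to naive pluripotency, with a median of -2.95.

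Pluripotency genes were the lineage lists with the lowest medians. Of the 18 naive pluripotency genes, 13 were lower and 1 was higher in Type III than in T09-treated EPSC. The list's median log2 ratio was -2.95. Of the 12 core pluripotency genes, 9 were lower and 1 was higher, with a median of -1.76. The general factors Pou5f1 and Sox2 remained at measurable levels. Pou5f1, which encodes OCT4, stood at 336 CPM in Type III and 1344 in T09-treated EPSC (-2.0, -2.03 to -1.97). Sox2, its partner, stood at 62.2 CPM in Type III and 449 in T09-treated EPSC (-2.85, -2.92 to -2.79).

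The regulators of the naive state were lower as well. Nanog was at 99.5 CPM in Type III and 623 in T09-treated EPSC (-2.65, -2.7 to -2.59). Esrrb, an orphan nuclear receptor of naive cells, was at 35.2 and 610.1 CPM in Type III and T09-treated EPSC (-4.11, -4.20 to -4.03). Prdm14, which keeps DNA methylation low in naive cells, was at 1.64 CPM in Type III and 37.9 in T09-treated EPSC (-4.48, -4.95 to -4.14). In the day 2 blastoids Nanog stood at 175 CPM in siNr1h2 and 176 CPM in siNT, between the Type III and the T09-treated EPSC levels. Spp1, which encodes osteopontin, had the lowest ratio of the list, at 9.61 CPM in Type III against 542 in T09-treated EPSC (-5.81, -5.98 to -5.66).

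Klf4, Klf5, Tbx3 and Dppa5a were the naive genes that did not reach 2-fold, with log2 ratios of -0.83, -0.99, -0.82 and -0.49. Lin28a and Dppa3 went the other way. Lin28a, which blocks maturation of let-7 microRNAs, was 525 CPM in Type III and 156 in T09-treated EPSC (1.75, 1.71 to 1.79). Dppa3, a maternal factor that shields the early genome from demethylation, was 21.6 CPM in Type III and 4.42 in T09-treated EPSC (2.27, 2.05 to 2.53).

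Genes of the formative and early epiblast moved both ways, with 5 of 12 higher and 3 lower and a median of 0.90. Fgf5, the usual mark of epiblast that has left the naive state, was 3.83 CPM in Type III and 0.247 in T09-treated EPSC (3.69, 3.03 to 5.05). Otx2, which drives that exit, was 23.8 and 29.4 CPM in Type III and T09-treated EPSC and was not counted as different (-0.30, -0.44 to -0.17). Car4, which encodes a carbonic anhydrase, had by far the largest ratio of this list, 8.54 (8.11 to 9.24), and is also known from extraembryonic endoderm.

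Visceral endoderm products and primitive endoderm factors had the highest medians of the 15 lineage lists, with or without the count minimum. All 10 listed primitive endoderm factors were higher in Type III, with a median log2 ratio of 6.44, against a median of 0.00 over all genes. Gata6, which starts the programme, was 69.9 CPM in Type III and 5.51 in T09-treated EPSC (3.65, 3.47 to 3.87). Gata4, which acts after it, was 372 CPM in Type III and 3.71 in T09-treated EPSC (6.63, 6.42 to 6.89). Sox17 was 152 CPM in Type III and 0.593 in T09-treated EPSC (7.87, 7.42 to 8.64). The receptor Pdgfra, on which survival of these cells depends, was 344 and 2.32 CPM in Type III and T09-treated EPSC (7.18, 6.92 to 7.52). Gata4 in day 2 blastoids stood between the Type III and the T09-treated EPSC levels, at 106 CPM in siNr1h2 and 109.6 in siNT. The hepatic-type regulators Foxa2 and Hnf4a, which visceral endoderm shares with liver, had log2 ratios of 7.11 and 4.81.

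Secreted products of visceral endoderm followed the same direction. Of 16 listed genes in the table, 13 had enough counts and were higher, with a median of 7.0, and 6 of these reached the minimum in Type III alone. The median was 6.47 with a prior count of 10 and 7.65 with a prior count of 0.5. Beside Apob and Ttr, Rbp4 (retinol-binding protein) was 137 CPM in Type III and 0.593 in T09-treated EPSC (7.73, 7.28 to 8.50). Spink1, a secreted protease inhibitor, was 193 CPM in Type III and 0.716 in T09-treated EPSC (7.97, 7.55 to 8.65). Apoa4, an apolipoprotein, had 725 counts in Type III and 0 in T09-treated EPSC, which makes it at least 298-fold higher. Afp, the foetal albumin-like protein of later visceral endoderm, was 12.7 CPM in Type III and 2 counts in T09-treated EPSC, with a wide interval (6.93, 6.14 to 11.05). The list thus held carriers of lipid, retinol and hormone, and Alb, albumin itself, was at 0 in both libraries.

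The machinery of protein uptake was higher as well. Of 7 endocytic receptor genes with enough counts, 5 were higher, with a median of 3.01. Amn, which holds cubilin at the cell surface, was 249 CPM in Type III and 0.716 in T09-treated EPSC (8.34, 7.92 to 9.02). Dab2, the adaptor that links these receptors to clathrin, was 1070.4 and 9.36 CPM in Type III and T09-treated EPSC (6.83, 6.69 to 6.99). Lrp2, the receptor megalin, was at 909 CPM in Type III and already at 113 CPM in T09-treated EPSC (3.01, 2.96 to 3.05). Folr1 and Scarb1 were not counted as different, with log2 ratios of 0.75 and 0.27.

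Basement membrane genes, many of them typical of parietal endoderm, were higher in 11 of 16 cases and lower in 0, with a median of 3.57. Col4a1, a type IV collagen chain, was 7700.0 CPM in Type III and 202 in T09-treated EPSC (5.25, 5.22 to 5.29). Its partner chain Col4a2 was 3465 CPM in Type III and 85.6 in T09-treated EPSC (5.34, 5.29 to 5.39). The proteoglycan core Srgn and the protease Plat, both used as parietal endoderm marks, had ratios of 6.86 (6.66 to 7.11) and 6.03 (5.59 to 6.77). Thbd, a further such mark, had 4 counts in Type III and 10 in T09-treated EPSC and was too low to call. Summed over all 17 members, the list held 22450.3 CPM in Type III and 3189 CPM in T09-treated EPSC.

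**Figure D2:**
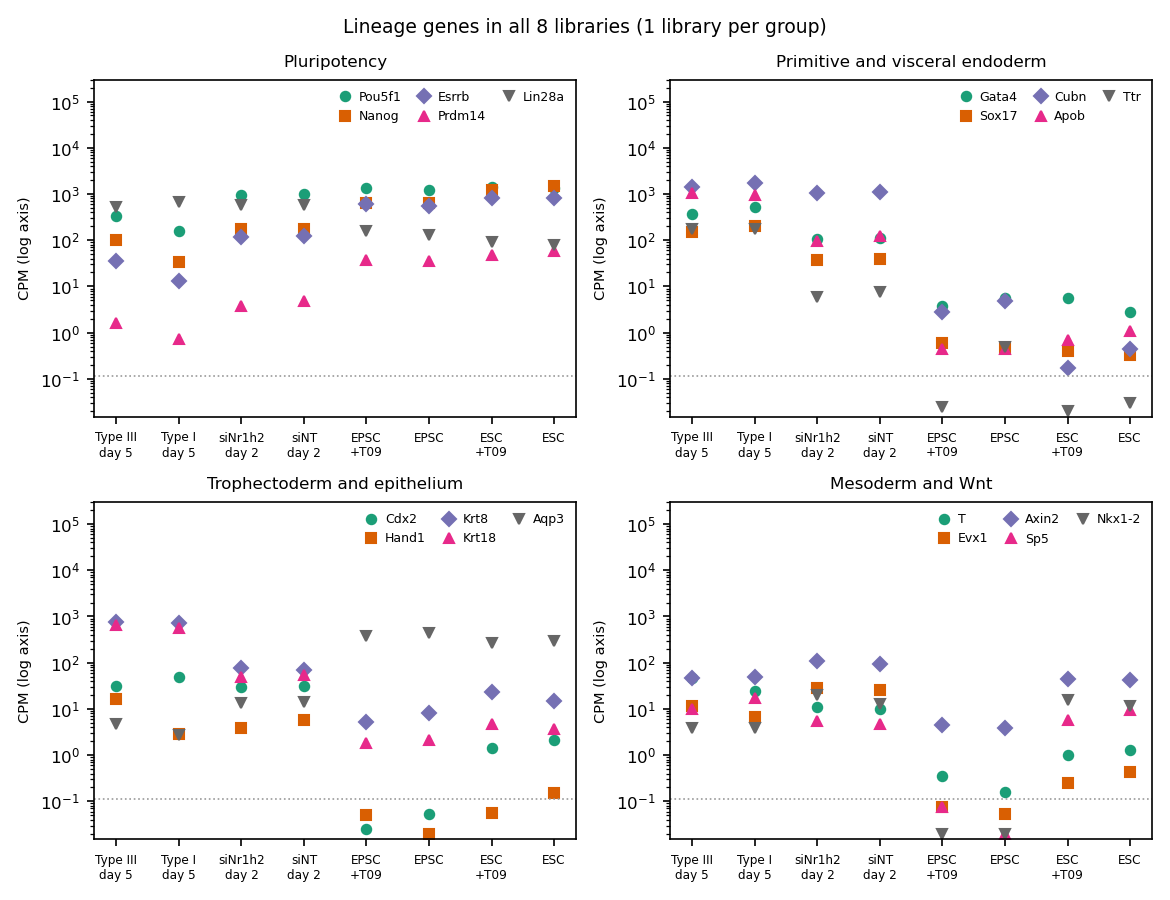
TMM-scaled CPM (log axis) of 5 genes each of pluripotency, endoderm, trophectoderm with epithelium, and mesoderm with Wnt signalling in all 8 libraries, 1 point per library. The dotted line marks the level of 3 counts in the shallowest library, 0.114 CPM, and values under 0.02 CPM are drawn at 0.02. In Type III, Pou5f1, Nanog, Esrrb and Prdm14 lie below all 6 libraries other than Type I, whereas Apob and Ttr lie above those same 6 libraries.

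Trophectoderm factors gave a divided picture, with 7 of 13 higher, 3 lower and a median of 1.16. Of the 13, 4 reached the count minimum in Type III alone. Cdx2, which specifies trophectoderm, was 30.9 CPM in Type III against 1 count in T09-treated EPSC (8.61, 7.81 to 15.60). Hand1, which acts in trophoblast giant cells and in mesoderm, was 16.3 CPM in Type III against 2 counts in T09-treated EPSC (7.30, 6.5 to 11.41). Gata2 was 55.6 CPM in Type III and 1.75 in T09-treated EPSC (4.94, 4.64 to 5.35). Tfap2c, which trophectoderm and naive cells share, was lower, at 28.1 CPM in Type III and 104 in T09-treated EPSC (-1.89, -2.0 to -1.79). Gata3 was 4.59 and 3.19 CPM in Type III and T09-treated EPSC and was not counted as different (0.52, 0.18 to 0.88). Elf5, a defining gene of trophoblast stem cells, had 13 counts in Type III and 0 in T09-treated EPSC, below the minimum used here. Cdx2 also acts in posterior mesoderm and Eomes in mesoderm and endoderm, so the list does not mark trophectoderm alone.

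Epithelial genes were mostly higher, 13 of 22 against 2 lower, with a median of 1.95. Of the 22, 4 reached the count minimum in Type III alone. The simple-epithelium keratins led. Krt8 was 754 CPM in Type III and 5.11 in T09-treated EPSC (7.19, 7.01 to 7.41), and its partner Krt18 was 648 and 1.8 CPM (8.45, 8.16 to 8.84). Cldn6, a tight junction protein of early epithelia including visceral endoderm, was 702 CPM in Type III and 2.59 in T09-treated EPSC (8.05, 7.80 to 8.37). Atp1b1, a subunit of the sodium pump that drives cavity filling, did not reach 2-fold, with a log2 ratio of 0.96, and the water channel Aqp3 fell as given above. Cdh1, E-cadherin, was 567 CPM in Type III and 516 in T09-treated EPSC.

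Placental trophoblast genes were detected in part. Of 17 listed genes, 10 had enough counts and were higher, with a median of 3.74, and 5 of these reached the minimum in Type III alone. The defining lineage marks Tpbpa, Prl3d1, Prl2c2, Ctsq, Ctsj and Psg28 were at 0 in both libraries. Synb, a syncytin that fuses trophoblast, had 137 counts in Type III and 0 in T09-treated EPSC, at least 56.2-fold higher. Gcm1, a regulator of syncytiotrophoblast, was 5.54 CPM in Type III and 0.395 in T09-treated EPSC (3.64, 3.07 to 4.65). Plac1 was 15.8 and 0.371 CPM in Type III and T09-treated EPSC (5.22, 4.68 to 6.26). Peg10 and Hand1, both in this list, are also counted under imprinted genes and trophectoderm factors.

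Mesoderm and gastrulation genes were higher in 13 of 16 cases and lower in 2, with a median of 3.67, or 2.41 with a prior count of 10. Of the 16, 10 reached the count minimum in Type III alone. T, which encodes brachyury of the primitive streak, was 46.5 CPM in Type III and 0.346 in T09-treated EPSC (6.86, 6.32 to 7.95). Evx1, of the posterior streak, was 11.7 CPM in Type III against 3 counts in T09-treated EPSC (6.52, 5.75 to 9.59). Nkx1-2, Foxf1 and Lhx1 were at 0 in T09-treated EPSC and were at least 50.9-fold, 38.2-fold and 23-fold higher in Type III, where they stood at 3.77, 2.83 and 1.7 CPM. Gsc, of the anterior streak, went down, with 1 count in Type III against 55 in T09-treated EPSC (-4.06, -10.81 to -2.94). The levels were modest, and the whole list summed to 106 CPM in Type III and 14 in T09-treated EPSC, with 134 in ESC.

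Genes of other tissues were checked for cell types beyond the blastocyst. Of 8 blood and endothelium genes with enough counts, 7 were higher, and 5 of the 8 reached the minimum in Type III alone. The embryonic globin Hbb-bh1 had 363 counts in Type III and 0 in T09-treated EPSC, at least 149-fold higher, and Hba-x, another embryonic globin, was at least 53.8-fold higher with 131 counts. Ptprc, the pan-leukocyte gene CD45, was at 0 in both libraries. Runx1 was 40.7 CPM in Type III and 1.06 in T09-treated EPSC (5.19, 4.82 to 5.73).

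Neural genes moved both ways, 4 of 10 higher and 4 lower. Sox1 and Pax6, the factors of early neuroectoderm, were both lower, at 0.73 and 0.335 CPM in Type III against 31.8 and 12.1 CPM in T09-treated EPSC, whereas the neurofilament gene Nefl was higher, at 180.0 and 4.57 CPM in Type III and T09-treated EPSC. Mesenchyme genes were also divided, 5 of 13 higher and 4 lower. Vim, vimentin, was lower, at 96 CPM in Type III and 394 in T09-treated EPSC (-2.04, -2.09 to -1.98), and the fibroblast collagen Col1a1 stood at 0.73 and 0.815 CPM and was not counted as different. Summed over the list, mesenchyme genes held 633 CPM in Type III and 1834 in T09-treated EPSC, and neural genes 276 and 521 CPM. The part of such cells in the differences above was not tested.

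Among LXR targets the exporters of cholesterol were the genes that fell most. The promoters of Abca1, an exporter, and Srebf1, which is not one, are shown because each holds the direct repeat that LXR and its partner bind. The repeat was searched for on both strands as the half-site GGTNA followed, after 5 bases of any kind, by GGTCA, where N is any base. The sequences are RefSeq's for the build GRCm38.p6, 250 bases upstream of the annotated start, 5′ to 3′ on the gene's strand, with the match in capitals. Abca1 lies on the minus strand at chr4:53159896-53160145, and Srebf1 on the minus strand at chr11:60210472-60210721.
Abca1: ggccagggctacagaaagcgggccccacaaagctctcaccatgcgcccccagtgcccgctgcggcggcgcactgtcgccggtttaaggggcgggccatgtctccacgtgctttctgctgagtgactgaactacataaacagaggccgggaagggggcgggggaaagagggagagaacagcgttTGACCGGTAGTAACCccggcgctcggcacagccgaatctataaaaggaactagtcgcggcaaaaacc
Srebf1: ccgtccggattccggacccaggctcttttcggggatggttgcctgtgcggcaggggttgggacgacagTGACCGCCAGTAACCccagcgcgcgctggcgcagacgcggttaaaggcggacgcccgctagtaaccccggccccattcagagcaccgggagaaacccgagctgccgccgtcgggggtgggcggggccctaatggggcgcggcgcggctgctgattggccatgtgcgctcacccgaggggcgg
The match was found in 2 of the 10 LXR targets that have a window, Abca1 and Srebf1, and in 51 of 27025 genes with a window (0.189%). A stricter form, with 1 more base so that the first half-site reads AGGTNA, was searched beside it and matched 0 of the 10 targets and 0.0851% of all windows, and the looser form is shown because it matched. A match describes these letters and is not evidence of binding.

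Abca1, which exports cholesterol to lipoproteins, fell to 5.38 CPM in Type III, against 211 CPM in T09-treated EPSC (-5.28, -5.51 to -5.08), a 38.8-fold lower level. In the other libraries Abca1 was 207 CPM in Type I, 5.07 in siNr1h2 and 3.4 in siNT day 2 blastoids, 18.3 in untreated EPSC, and 339.9 in T09-treated ESC against 51 in ESC. Type III thus lay with the day 2 blastoids and below both untreated stem cell libraries, while Type I lay with T09-treated EPSC. Abcg1, which exports cholesterol to mature HDL, was 1.61 CPM in Type III and 60.2 in T09-treated EPSC (-5.18, -5.64 to -4.83), with 18.7 CPM in Type I and 1.86 in untreated EPSC.

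The lipogenic arm showed smaller differences in the same direction. Srebf1, the transcription factor of fatty acid synthesis, was 86.8 CPM in Type III and 289 in T09-treated EPSC (-1.74, -1.80 to -1.68), with 283 in Type I and 90.9 in untreated EPSC. Scd2, a stearoyl-CoA desaturase, was 852 CPM in Type III and 2108 in T09-treated EPSC (-1.31, -1.33 to -1.29), with 2546 in Type I and 711 in untreated EPSC. For both genes the Type III level lay closer to untreated EPSC than to T09-treated EPSC. Mylip, which degrades the LDL receptor, and Lpcat3, which remodels phospholipids, were not counted as different, at 20.2 CPM in Type III and 19.5 in T09-treated EPSC for Mylip and 109 and 106 CPM for Lpcat3, and in both libraries lay above untreated EPSC at 1.83 and 52.8 CPM.

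Over the list of 14 LXR targets, 12 had enough counts, of which 5 were lower and 2 higher in Type III than in T09-treated EPSC, with a median of -0.83. Of all genes, 16.0% were lower and 21.7% higher. The higher ones were Apoe, a lipoprotein component also made by visceral endoderm (1.92, 1.90 to 1.93), and Smpdl3a, counted once in T09-treated EPSC (3.86, 2.90 to 10.81). The receptor Nr1h2 (LXR beta) was 52.7 CPM in Type III and 92 in T09-treated EPSC, a log2 ratio of -0.80 (-0.89 to -0.72) that did not reach 2-fold, and stood at 52.6 CPM in Type I. Rxra, a partner receptor of Nr1h2, was 29.8 CPM in Type III and 12.8 in T09-treated EPSC (1.21, 1.06 to 1.37). Rxrb, another partner, was computed beside it and is not reported here, so the partners as a group are not described. Nr1h2 and Rxra were named after their values had been seen.

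**Figure D3:**
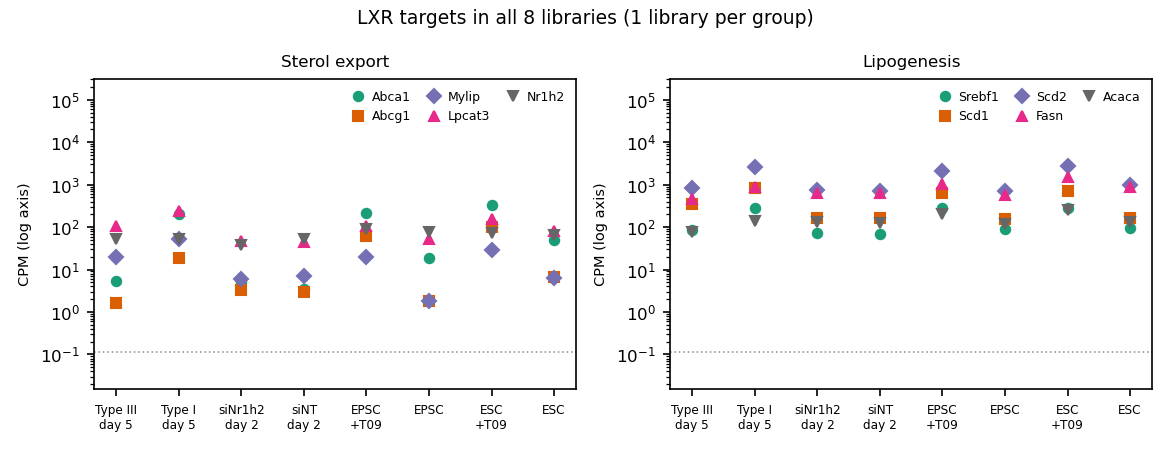
TMM-scaled CPM (log axis) of LXR targets and the receptor gene Nr1h2 in all 8 libraries, 1 point per library, with the dotted line at 0.114 CPM marking 3 counts in the shallowest library. Abca1 and Abcg1 are at 5.38 and 1.61 CPM in Type III, against 207 and 18.7 in Type I, and the lipogenic genes Srebf1, Scd1 and Scd2 are likewise lower in Type III than in Type I.

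Of the fatty acid synthesis genes, 5 of 17 were lower and 1 was higher, with a median of -0.62, against 16.0% of all genes lower and 21.7% higher. Fasn, the synthase itself, was 458 CPM in Type III and 1018 in T09-treated EPSC (-1.15, -1.18 to -1.13). Acaca, which supplies malonyl-CoA to it, was 75.4 and 200.04 CPM in Type III and T09-treated EPSC (-1.41, -1.47 to -1.34). Me1, which supplies NADPH, was the higher one, at 369 CPM in Type III and 44.3 in T09-treated EPSC (3.06, 2.99 to 3.13). Scd2 is a member of both lists.

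Of the cholesterol synthesis and uptake genes, 6 of 25 were higher and 0 lower, with a median of 0.20, and the share that was higher is close to the 21.7% of all genes. Insig1, which holds SREBP proteins back when sterol is plentiful, was 423 CPM in Type III and 104 in T09-treated EPSC (2.02, 1.97 to 2.07). Stard4, a sterol carrier, had a ratio of 2.09 (2.03 to 2.15).

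Genes of fatty acid uptake and oxidation were 4 higher and 4 lower of 14, against 21.7% and 16.0% of all genes. Cpt1a, which admits fatty acids to mitochondria, fell to 6.87 CPM in Type III, against 248 in T09-treated EPSC (-5.16, -5.37 to -4.98). Fabp1, the fatty acid carrier of liver and gut, had 87 counts in Type III and 0 in T09-treated EPSC, at least 35.7-fold higher. Acadl, a mitochondrial dehydrogenase of long chains, was higher (2.24, 2.11 to 2.39).

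**Figure D4:**
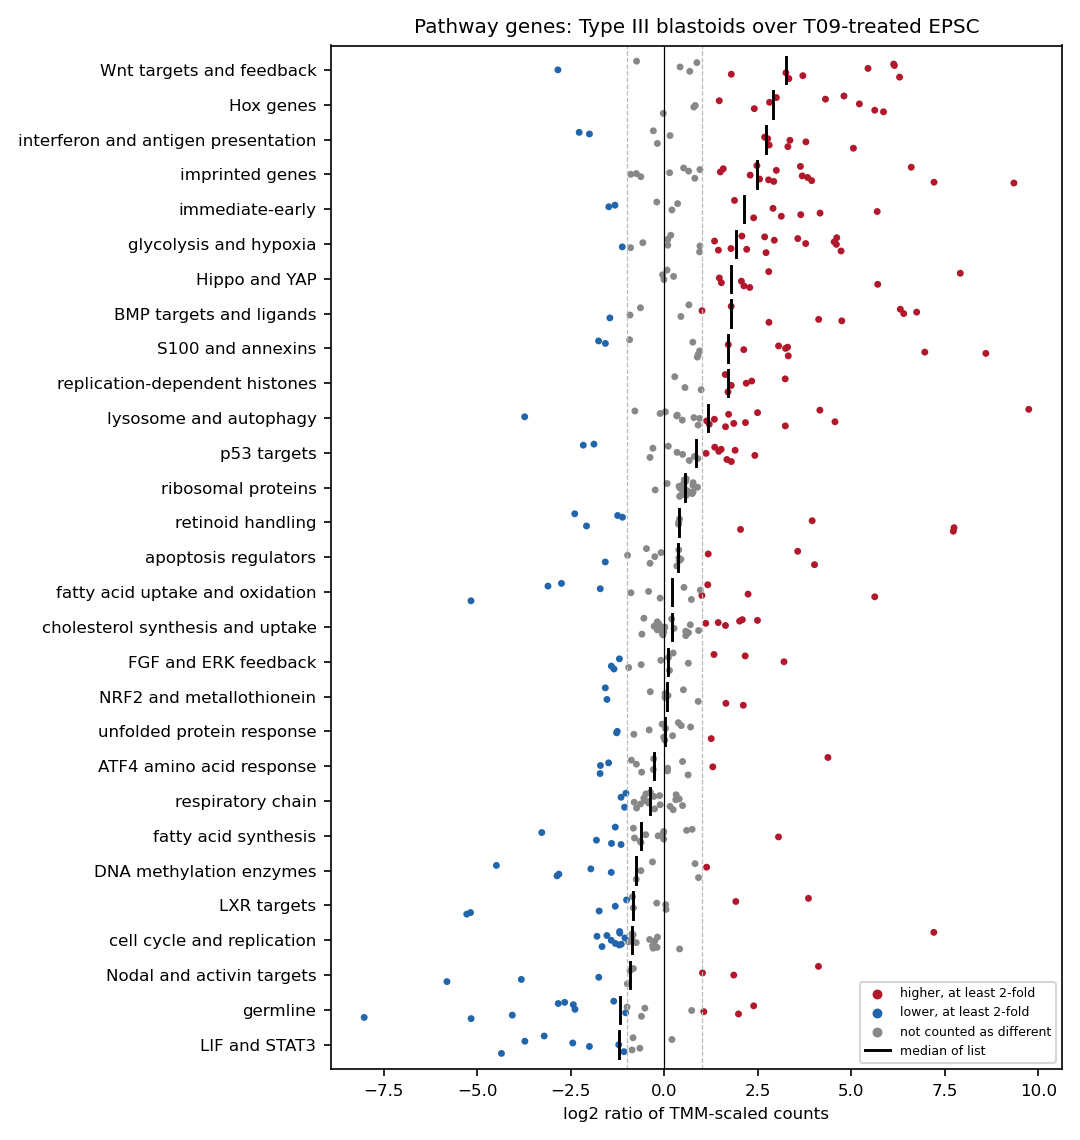
Log2 ratio of Type III blastoids over T09-treated EPSC for each member of 29 pathway lists with at least 20 counts in 1 of the libraries (1 library a side), drawn as in the plot of lineage lists. Medians run from 3.26 for Wnt targets to -1.21 for LIF and STAT3 genes, and the ribosomal protein genes form a narrow group around 0.56.

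The media of the 2 libraries differed in several signalling agents, and genes that report on those pathways were read out list by list. LIF and STAT3 genes were lower in 7 of 11 cases and higher in 0, with a median of -1.21. Tfcp2l1, among the lower ones, and Klf4, which did not reach 2-fold, are also counted in the naive list. Junb is also in the immediate-early list. Socs3, the feedback inhibitor that STAT3 induces, was 8.21 CPM in Type III and 169 in T09-treated EPSC (-4.35, -4.54 to -4.18). Bcl3, another STAT3 target, was 6.18 and 82.2 CPM in Type III and T09-treated EPSC (-3.72, -3.95 to -3.53). EPSC medium held LIF and the blastoid medium, as labelled, did not.

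Wnt targets and feedback genes were higher in 8 of 13 cases and lower in 1, with a median of 3.26. Of the 13, 3 reached the count minimum in Type III alone. Axin2, the most direct of these readouts, was 45.6 CPM in Type III and 4.47 in T09-treated EPSC (3.33, 3.13 to 3.58), with 95.8 CPM in siNT day 2 blastoids and 42.3 in ESC. Sp5 was 10 CPM in Type III against 3 counts in T09-treated EPSC (6.29, 5.52 to 9.37). The stem cell receptor Lgr5 was at 0 in T09-treated EPSC and at least 51.7-fold higher in Type III, with 126 counts. The secreted inhibitors split, Dkk1 being higher at 43.8 CPM in Type III and 0.568 in T09-treated EPSC, and Notum lower at 3.95 and 28.6 CPM. Both media held CHIR99021, and XAV939 was listed for EPSC medium alone.

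BMP targets and ligands were higher in 8 of 13 cases and lower in 1, and 3 of the 13 reached the count minimum in Type III alone. Id1, Id2 and Id3, the common targets of BMP, had ratios of 2.80 (2.7 to 2.91), 4.75 (4.55 to 4.99) and 4.13 (3.94 to 4.36). Msx2, a homeobox target, was 24.5 CPM in Type III and 0.173 in T09-treated EPSC (6.75, 6.09 to 8.46). The ligand Bmp2 was 8.21 CPM in Type III against 2 counts in T09-treated EPSC, while Bmp4 was lower, at 14.5 and 39.7 CPM in Type III and T09-treated EPSC (-1.45, -1.60 to -1.31).

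Nodal and activin targets held 3 higher and 3 lower genes of 9. The feedback inhibitors Lefty1 and Lefty2 were lower, Lefty1 at 1.22 CPM in Type III and 71.1 in T09-treated EPSC (-5.81, -6.36 to -5.42) and Lefty2 at 4.44 and 63.4 CPM (-3.82, -4.09 to -3.59). Nodal itself was 30.6 CPM in Type III and 60.6 in T09-treated EPSC and just missed 2-fold (-0.98, -1.09 to -0.88). Cer1, an inhibitor made by anterior visceral endoderm, was at 0 in both. FGF and ERK feedback genes had a median of 0.12, with 3 of 13 higher and 3 lower, shares near those of all genes. Dusp4 was higher (3.20, 3.03 to 3.41) and Etv5 and Spry4 lower (-1.41 and -1.34), while Dusp6, a phosphatase of ERK, was 46.3 and 41.9 CPM in Type III and T09-treated EPSC.

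Immediate-early genes were higher in 7 of 12 cases and lower in 2. Fosb was 13 CPM in Type III and 0.198 in T09-treated EPSC (5.70, 5.05 to 7.26), and Egr1 was 16.2 and 3.04 CPM (2.39, 2.13 to 2.71) with 72.2 CPM in untreated EPSC. Egr1 in untreated EPSC thus lay above both, and these genes are known to respond to handling of cells within minutes. Hippo and YAP genes were higher in 8 of 12 cases and lower in 0, with a median of 1.80. Amot, the scaffold that retains YAP outside the nucleus, was 550.4 CPM in Type III and 2.22 in T09-treated EPSC (7.92, 7.65 to 8.27), and the YAP target Ctgf was 46.7 and 9.51 CPM (2.29, 2.13 to 2.46).

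Retinoid handling held 4 higher and 4 lower genes of 11, against 21.7% and 16.0% of all genes. Cyp26a1, which breaks down retinoic acid, was 113 CPM in Type III and 0.469 in T09-treated EPSC (7.75, 7.26 to 8.64), while the receptor genes Rarg and Rarb were lower (-2.39 and -2.08). Hox genes were higher in 9 of 12 cases and lower in 0, at low levels, and 8 of the 12 reached the count minimum in Type III alone. Hoxb1 had 150 counts in Type III and 1 in T09-treated EPSC (5.86, 5.03 to 12.84), and Hoxb2 and Hoxb3 were at least 35.7-fold and 26.7-fold higher from 0 counts.

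Glycolytic and hypoxia-responsive genes were higher in 14 of 22 cases and lower in 1, with a median of 1.93. The promoters of Bnip3 and Egln3 are shown because both genes are induced by hypoxia-inducible factors (HIF), with every copy of the HIF core ACGTG on either strand in capitals, from the same RefSeq table. Bnip3 lies on the minus strand at chr7:138909507-138909756, and Egln3 on the minus strand at chr12:54203875-54204124.
Bnip3: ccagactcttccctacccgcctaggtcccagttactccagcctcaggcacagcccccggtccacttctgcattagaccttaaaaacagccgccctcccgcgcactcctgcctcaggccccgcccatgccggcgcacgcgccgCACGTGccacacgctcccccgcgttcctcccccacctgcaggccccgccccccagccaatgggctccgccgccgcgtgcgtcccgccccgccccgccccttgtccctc
Egln3: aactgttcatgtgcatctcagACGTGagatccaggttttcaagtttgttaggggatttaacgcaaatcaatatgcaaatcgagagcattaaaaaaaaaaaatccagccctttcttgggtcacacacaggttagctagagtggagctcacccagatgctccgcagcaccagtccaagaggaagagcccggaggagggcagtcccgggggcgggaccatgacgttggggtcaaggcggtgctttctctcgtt
The capitals in Bnip3 are a palindrome that reads as the core on both strands. The core was present in 14 of the 21 listed genes with a window, Hk2, which was lower, among them, against 18.5% of 27025 genes with a window. Genes counted as higher held it in 22.97% of 2320 cases, and genes counted as lower in 21.75% of 1738, so it was similarly frequent in both. So short a core is frequent in any sequence, and the list holds known HIF responders. A longer form, ACGTGC, was present in 10 of the 21 and in 5.63% of all windows. It was present in 7.41% of genes counted as higher and 7.36% of those counted as lower.

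In all, 14 motif spellings were searched, and the LXR and HIF ones were chosen for display after the matches were seen. Of the others, the TEAD motif GGAATG was present in 7 of 9 Hippo and YAP genes with a window, against 14.4% of all windows. It was similarly frequent in genes counted as higher, at 15.2%, and in those counted as lower, at 14.6%. The GATA motif AGATAA was present in 2 of 4 primitive endoderm factors and in 0 of 13 visceral endoderm products and 0 of 6 endocytic receptors, against 11.4% of all windows. Its other form TGATAA was present in 0, 1 and 1 of the same lists, against 9.21%. The HNF1 half-site GTTAAT was present in 4 of the 13 visceral endoderm products, against 7.49%, while the whole palindromic HNF1 site and the HNF4 motif CAAAGTCCA were present in 0 of them, against 0.0111% and 0.451%. The SREBP motif TCACNCCAC was present in 1 of 18 cholesterol genes, against 1.22%, and the TCF motif CTTTGAT in 1 of 9 Wnt genes, against 3.72%. The E2F motif TTTGGCGC was present in 2 of 18 cell cycle genes, against 0.485%, and the joint OCT and SOX motif in 0 windows. All were read on both strands, the HNF1 half-site lies within its whole site, and ACGTG lies within ACGTGC.

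Bnip3, a mitophagy receptor, was 322 CPM in Type III and 12.1 in T09-treated EPSC (4.73, 4.61 to 4.87). Egln3, the prolyl hydroxylase that feeds back on HIF, was 50 CPM in Type III and 2 in T09-treated EPSC (4.61, 4.32 to 4.98). P4ha1, which hydroxylates collagen, was 532 and 21.7 CPM in Type III and T09-treated EPSC (4.61, 4.52 to 4.72). The largest ratios of the list thus belonged to hypoxia-responsive genes outside glycolysis proper. Ldha, lactate dehydrogenase, was 2395 CPM in Type III and 362 in T09-treated EPSC (2.72, 2.7 to 2.75), and Slc2a3, a glucose transporter, was 4004 and 1160.5 CPM (1.79, 1.77 to 1.80). Hk2, the hexokinase, was lower (-1.12, -1.16 to -1.08), and Eno1 was at 0 in all 8 libraries, so it gives no value. Respiratory chain genes were lower in 3 of 22 cases and higher in 0, with a median of -0.39, a share below the 16.0% of all genes that were lower. Those 3 were Cox5a, Uqcrc1 and Atp5g1, at log2 ratios of -1.15, -1.06 and -1.02.

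Of the imprinted genes, 15 of 23 were higher and 0 lower, with a median of 2.48. Of the 23, 3 reached the count minimum in Type III alone. Igf2, the growth factor that shares its locus with H19, was 111 CPM in Type III and 0.692 in T09-treated EPSC (7.22, 6.79 to 7.92). Peg3 was 627 and 40.7 CPM in Type III and T09-treated EPSC (3.94, 3.87 to 4.02). Genes of the Dlk1 domain split, since Meg3 and Rian were higher (2.93 and 2.79) whereas Dlk1 itself was not counted as different (0.82, 0.42 to 1.26). Airn, the antisense RNA of the Igf2r locus, had 252 counts in Type III and 1 in T09-treated EPSC (6.61, 5.79 to 13.59), while Igf2r was 98 and 182 CPM. Whether the deposited counts used strand is not given in the sources used here, so reads of Airn and of genes it overlaps may not be separated.

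The DNA methylation list holds enzymes that write or remove the mark, with related factors. Its genes were lower in 5 of 11 cases and higher in 1. The lower ones included Prdm14, which is not such an enzyme, and Tet2, both also counted in the naive list. Tet1 was 84.6 CPM in Type III and 616 in T09-treated EPSC (-2.86, -2.92 to -2.81), and Tet2 was 25.2 and 178 CPM (-2.81, -2.92 to -2.71). Dnmt1, the maintenance methyltransferase, and its guide Uhrf1 were lower (-1.41 and -1.96). Dnmt3b, a de novo enzyme, was 211 CPM in Type III and 112 in T09-treated EPSC and did not reach 2-fold (0.92, 0.86 to 0.97).

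Germline genes, many of which are held silent by methylation in somatic cells, were lower in 9 of 16 cases and higher in 3, with a median of -1.19. Dazl, an RNA-binding protein of germ cells, was 4.38 CPM in Type III and 159 in T09-treated EPSC (-5.16, -5.43 to -4.94). Sycp3, of the synaptonemal complex, was higher, at 43.7 and 11 CPM in Type III and T09-treated EPSC (1.99, 1.84 to 2.15). Of the 10 genes in the table that mark the 2-cell-like state, a rare state of stem cell cultures, 7 had enough counts and were higher, 5 of them reaching the minimum in Type III alone. Zscan4c was 7.64 CPM in Type III and 0.642 in T09-treated EPSC (3.46, 2.99 to 4.21), and 25.4 CPM in siNT day 2 blastoids. Members of the Zscan4 and Usp17l families are near-identical copies, so their counts are uncertain one by one.

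Cell cycle and replication genes were lower in 10 of 23 cases and higher in 1, with a median of -0.86. The lower ones were Mcm2, a subunit of the replicative helicase (-1.66, -1.70 to -1.62), its partners Mcm3, Mcm4 and Mcm5, Ccne1, cyclin E1 (-1.80, -1.87 to -1.72), the transcription factor E2f1 (-1.53, -1.66 to -1.41), Rrm2, Plk1, Ccnd1 and Ccnd3. Mki67 and Ccnb1 were not counted as different, at 0.41 and -0.19. The exception was Ccnd2, a D cyclin, at 70.2 CPM in Type III and 0.42 in T09-treated EPSC (7.21, 6.70 to 8.17). The p53 targets were higher in 8 of 18 cases and lower in 2. Cdkn1a, the inhibitor p21, was 152 CPM in Type III and 43.9 in T09-treated EPSC (1.80, 1.72 to 1.88), while Trp53 itself was lower (-2.16, -2.22 to -2.11) and the pro-apoptotic targets Bax and Bbc3 were not counted as different (-0.38 and 0.81).

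Apoptosis regulators were mostly within 2-fold, with 3 of 14 higher and 1 lower, the share that was higher being close to that of all genes. Bcl2, which protects cells from death, was 2.43 and 0.0988 CPM in Type III and T09-treated EPSC (4.02, 3.21 to 6.53), and Hrk, which promotes it, was 23.8 and 1.95 CPM (3.57, 3.27 to 3.96). The ATF4 amino acid response (2 of 14 higher, 3 lower), the unfolded protein response (1 of 13 higher, 2 lower) and the NRF2 list (2 of 10 higher, 2 lower) had medians of -0.28, 0.02 and 0.06. None of these counts stood far above the 21.7% of all genes higher and 16.0% lower. In the NRF2 list the metallothioneins Mt1 and Mt2 were the higher genes (2.12 and 1.65), and Nqo1 and Gsta4 the lower ones.

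Lysosome and autophagy genes were higher in 12 of 22 cases and lower in 1, with a median of 1.17. Lgmn, a lysosomal protease, was 1569.6 CPM in Type III and 66.2 in T09-treated EPSC (4.57, 4.51 to 4.62), and Ctsl, cathepsin L, was 2474 and 262 CPM (3.24, 3.21 to 3.27). Calcoco2, an autophagy receptor, was the lower one, at 10 CPM in Type III and 133 in T09-treated EPSC (-3.73, -3.90 to -3.57). S100 and annexin genes were higher in 8 of 15 cases and lower in 2, led by the calcium carrier S100g, at 0 in T09-treated EPSC and at least 285-fold higher, and by S100a1 (6.97, 6.64 to 7.44).

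Interferon and antigen presentation genes were higher in 7 of 12 cases and lower in 2. B2m, the light chain of class I molecules, was 170.2 CPM in Type III and 17.1 in T09-treated EPSC (3.31, 3.20 to 3.43), and H2-K1, a heavy chain, was 169 and 24.1 CPM (2.81, 2.71 to 2.91). Ifitm2 and Ifitm3 were lower (-2.0 and -2.27). Replication-dependent histone genes were higher in 6 of the 9 with enough counts, 4 of which reached the minimum in Type III alone, at levels of at most 8.67 CPM in Type III. Most of these RNAs have no poly(A) tail, so their counts also depend on how RNA was selected, which the labels do not state. The 20 ribosomal protein genes were higher or lower in 0 cases, but 19 of them had a ratio above 0, with a median of 0.56.

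Type III was then set directly against Type I, a contrast that does not use the T09-treated EPSC library. Of 13907 genes with enough counts, 800 were higher in Type III than in Type I (5.75%) and 268 were lower (1.93%), or 7.68% counted as different, with a median log2 ratio of -0.01. Of these 1068 genes, 66.8% had under 100 counts in both libraries. Every count given below for Type III over Type I is to be set beside the 5.75% higher and 1.93% lower. Type I over T09-treated EPSC gave 3266 genes higher (22.7%) and 2602 lower (18.1%) of 14378, or 40.8% counted as different. As both comparisons with T09-treated EPSC share that library, their values are given side by side and no overlap between them is counted. The next counts both use the Type III library and are a description. Among the 3117 genes higher in Type III than in T09-treated EPSC, 290 were also higher and 70 lower in Type III than in Type I. Among the 2306 lower genes, 275 were higher and 44 lower in Type III than in Type I.

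**Figure D5:**
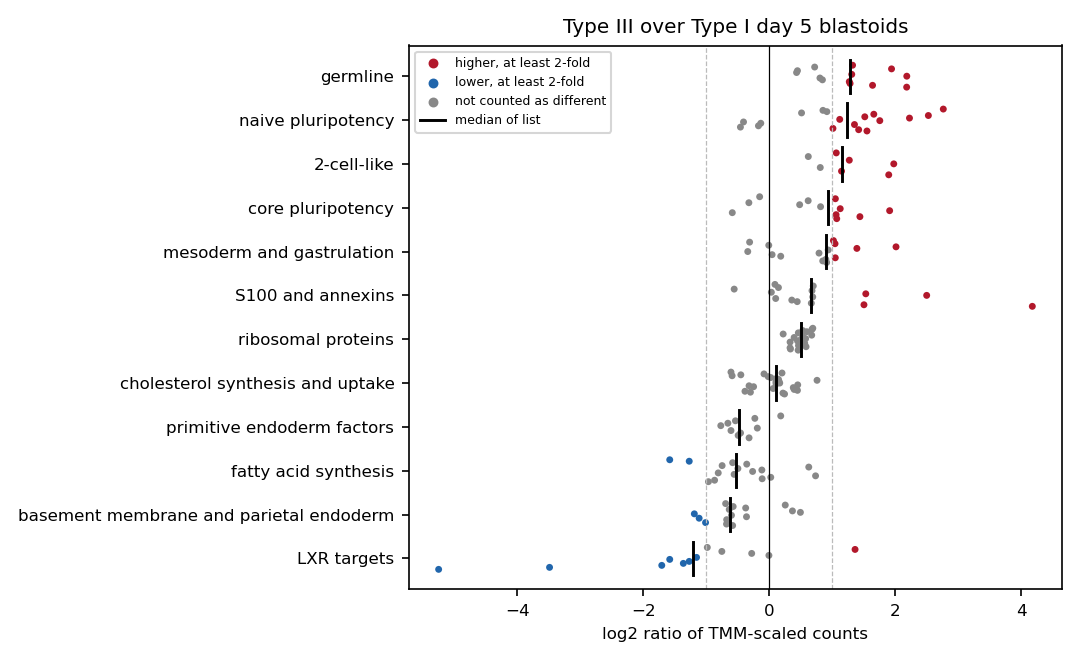
Log2 ratio of Type III over Type I day 5 blastoids for each member of 12 gene lists with at least 20 counts in 1 of the libraries (1 library a side). Points are genes, coloured as in the plot of lineage lists, black bars are list medians and dashed lines mark 2-fold. Pluripotency, germline and 2-cell-like genes lie to the right, and LXR targets to the left, with Abca1 at -5.25 and Abcg1 at -3.49.

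By the interval bound nearest 0, among genes with 50 or more counts in either library, those furthest below Type I were the LXR targets Abca1 and Abcg1. Abca1 had a log2 ratio of Type III over Type I of -5.25 (-5.49 to -5.05), and Abcg1 of -3.49 (-3.97 to -3.13). Srebf1 and Scd2 were also among the 8 genes named on this side, at -1.71 (-1.77 to -1.65) and -1.58 (-1.60 to -1.56). In all, 7 of 12 LXR targets were lower and 1 was higher in Type III than in Type I, with a median of -1.21, against 1.93% of all genes lower. The other lower ones were Mylip, Scd1 and Lpcat3, at -1.36, -1.27 and -1.15. The labels give T09-treated EPSC as the source of both classes, and the reason for the difference was not tested. Sema3d, Pax5, Adcy8 and Trp63, the remaining 4, rested on 8 to 13 counts in Type III.

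Pluripotency genes differed in the opposite direction, 11 of 18 naive genes and 6 of 12 core genes being higher in Type III than in Type I and 0 being lower, against 5.75% of all genes higher. Pou5f1 was 336 CPM in Type III and 159.8 in Type I (1.07, 1.03 to 1.12), and Nanog was 99.5 and 33.9 CPM (1.55, 1.46 to 1.65). Both libraries lay below T09-treated EPSC, and Type III lay nearer to it, with medians over the naive list of -2.95 for Type III and -3.93 for Type I against T09-treated EPSC. Germline genes showed the same order, 8 of 13 being higher in Type III than in Type I and 0 lower, with medians of -1.19 for Type III and -2.28 for Type I against T09-treated EPSC. Of the 2-cell-like genes, 5 of 7 were higher in Type III than in Type I and 0 lower, but here both classes lay above T09-treated EPSC, and their summed level was 25.6 CPM in Type III, 10.4 in Type I and 2.89 in T09-treated EPSC.

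Endoderm factors did not reach 2-fold between the classes. Of 10 primitive endoderm factors, 0 were higher or lower in Type III than in Type I, though 9 had a ratio below 0, with a median of -0.47. Gata4 was 372 CPM in Type III and 523 in Type I (-0.49, -0.53 to -0.46), and Pdgfra was 344 and 524 CPM (-0.61, -0.64 to -0.57). Ttr and Apob had ratios near 0, at -0.02 (-0.07 to 0.03) and 0.08 (0.06 to 0.10). These intervals cover counting error only and do not bound the difference between cultures of the classes. The basement membrane list held the 3 genes that reached 2-fold, Col4a1 (-1.01, -1.02 to -1.0), Col4a2 (-1.11, -1.12 to -1.10) and Plat (-1.19, -1.28 to -1.10), all lower in Type III than in Type I. Its summed level was 22450.3 CPM in Type III and 39824 CPM in Type I.

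Mesoderm genes were higher in Type III than in Type I in 5 of 15 cases and lower in 0, against 5.75% of all genes higher. Among the higher ones were Cdx4 (2.01, 1.05 to 3.91) and Lhx1 (1.39, 0.74 to 2.26). T just missed 2-fold at 46.5 CPM in Type III and 24.7 in Type I (0.91, 0.79 to 1.03). Hand1 was 16.3 CPM in Type III and 2.81 in Type I (2.51, 2.22 to 2.85), and Cdx2 was 30.9 and 48.2 CPM and was not counted as different (-0.64, -0.75 to -0.53). Of the 8 blood and endothelium genes with enough counts, 1 was higher and 1 lower in Type III than in Type I, with a median of -0.03. The lower one was Hba-x, at 3.98 CPM in Type III and 13.7 in Type I (-1.77, -2.07 to -1.5), and the higher one was Kdr, a VEGF receptor (1.05, 0.61 to 1.56).

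By the interval bound nearest 0, among genes with 50 or more counts in either library, the gene furthest above Type I was S100a6, a calcium-binding protein, at 6.54 CPM in Type III and 0.306 in Type I (4.18, 3.55 to 5.44). Its level in T09-treated EPSC was 3.51 CPM, so the Type I level was the lowest of the 3. Lefty2 was 4.44 CPM in Type III and 0.502 in Type I (3.01, 2.44 to 3.94), and Spp1 was 9.61 and 1.37 CPM (2.76, 2.38 to 3.28). Serpinb9e, Ndufa4l2, Ctla2a, Guca1a and Pglyrp1 completed the group, with log2 ratios from 3.16 for Pglyrp1 to 3.56 for Serpinb9e. Of these, Ctla2a was at 0 in T09-treated EPSC and stood at 4.02 CPM in Type III and 0.362 in Type I.

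Ribosomal protein genes differed little per gene but in the same direction, all 20 having a ratio of Type III over Type I above 0, with a median of 0.50, and their summed level was 45254 CPM in Type III, 32366 in Type I and 31502 in T09-treated EPSC. Glycolysis and hypoxia genes had 2 of 21 higher in Type III than in Type I, 0 lower and a median of 0.28. Egln3 was 50 CPM in Type III and 22.6 in Type I (1.14, 1.02 to 1.27). Imprinted genes had 1 of 23 higher and 0 lower, H19 being 4828 CPM in Type III and 4068 in Type I.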

How the data were processed

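RNA of 8 mouse samples, 1 per group, was sequenced after a directional NEBNext library preparation, per the labels' protocols. The deposited values are whole-number read counts for 24888 genes, of which 5090 had no count in any library, and 0 columns belonged to no sample. STAR, HTSeq, Cuffnorm and the build mm9 are named in the submitters' processing notes, and their versions and the strand setting of the counting are not given in the sources used here. TMM factors over all 8 libraries were computed with edgeR 4.0.16 in R 4.3.3, and ratios and exact binomial intervals with Python 3.11.15, numpy 2.4.6, pandas 2.3.3 and scipy 1.17.1, and figures were drawn with matplotlib 3.10.9. edgeR was used for scaling alone, since 1 library a side leaves no residual spread and allows no p-value.

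Ratios carry a prior count of 2. A gene entered a comparison with at least 20 counts in 1 of the 2 libraries and was counted as different at 2-fold or more with a 95% interval that excluded a ratio of 1. A level of 3 counts was taken as the floor, 0.0913 CPM in Type III and 0.0741 CPM in T09-treated EPSC. On simulated counts for 24888 genes, 200 of 200 genes changed in Type III over T09-treated EPSC were recovered with 19 false calls among 14037 tested. The simulated counts carried counting error only. The changes were log2 values of 1.5, above the 2-fold threshold, in well-counted genes, so their recovery followed from the set-up. This checks the calculation alone. The spread between cultures is unknown, so the simulation gives no rate of false calls for the measured libraries.

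The genes and the 44 lists were chosen with earlier results of these data known, and 647 of 656 listed symbols are in the table. The 15 genes furthest higher and 15 furthest lower were named by the interval bound nearest 0, among genes that reached 50 counts in either library and are neither predicted nor small RNA genes. From each list the first 4 members and up to 4 further members with the largest differences were named, with 8 higher and 8 lower genes for Type III over Type I by the same rule. Other list members and Nr1h2 and Rxra were named after their values were seen, and some genes that these rules name are not reported here. Promoter sequences came from RefSeq's GRCm38.p6, which is not the build of the counts, and were matched by symbol for 467 listed genes. Alternatives changed the scaling, the count minimum, the fold threshold, the prior count and the assumed spread.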

Additional observations from a re-analysis of the deposited data

How the results depend on the processing

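The count of genes different between Type III and T09-treated EPSC, 5423, was 2693 at a 4-fold threshold and 3407 with an assumed biological coefficient of variation of 0.4. For Type I over T09-treated EPSC, 5868 genes became 3114 and 3837 under the same 2 settings. The 1068 genes of Type III over Type I depended more on the settings, with 1761 under no count minimum, 355 under at least 100 counts, 2307 at 1.5-fold, 153 at 4-fold and 301 with the variation of 0.4. The share of these that were higher in Type III was 74.9%, and 63.9% at 1.5-fold and 86.0% with the variation of 0.4. The other settings kept each count within 1.5 times its value.

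Other scalings moved named ratios of Type III over T09-treated EPSC by at most 0.04 log2 units. Library totals still moved 24 of 360 named ratios outside their interval and changed the sign of 1, Hspa5, from 0.02 to -0.02. A prior count of 10 moved 79 of 360 named ratios outside their interval, by up to 2.32 units, and list medians by up to 1.26, mesoderm and gastrulation to 2.41. A prior count of 0.5 moved 0 named ratios outside their interval but shifted them by up to 2.00 units. For a gene at 0 counts in 1 library the interval is open on that side. The same prior moved 3 of 44 list medians by over 0.25 and up to 0.71, mesoderm and gastrulation to 4.38. A minimum of 100 counts moved 10 of 44 list medians by over 0.25 and up to 1.44, neural genes to -1.73 and interferon and antigen presentation to 1.42. Of 44 list medians, 3 changed sign, the unfolded protein response to -0.02 with library totals, neural genes to 0.14 with no count minimum and fatty acid uptake and oxidation to -0.26 at 100 counts or more. Named ratios and list medians of Type III over Type I were not recomputed under these settings, so its calls near 2-fold, such as Col4a1, were not checked. In that comparison the median over all genes went from -0.01 to -0.05 with RLE scaling, an alternative to TMM. No paired analysis was possible because each group has 1 library. With no replicate, intervals cover counting error alone, and the spread between cultures or pools of blastoids is unknown. The assumed variations of 0.2 and 0.4 are not estimates from these data.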
